A study of Mus musculus with 18 samples.

Results

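The genes described here are 33 enzymes and regulators of cholesterol and fatty acid synthesis, among 37236 genes measured by RNA sequencing in CD3+ tumor-infiltrating lymphocytes (TILs) of B16-OVA tumors. They hold 7 genes of the mevalonate pathway, 12 of the squalene and sterol steps, 5 that control sterol regulatory element-binding proteins (SREBPs), 1 sterol transporter and 8 of fatty acid synthesis. The members were chosen by their role in these pathways and with their levels in the 4 groups and their genotype by treatment difference already seen. The genotype by treatment difference is therefore given as a description with no test. The p-values of the pairwise comparisons come from a fit across all genes and are no independent evidence for these genes. Of the 33 genes, 32 had a mean of at least 10 normalized counts and were tested, and the desaturase *Fads2* was below this limit.

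B16-OVA cells are a melanoma line of the mouse that carries ovalbumin as a model antigen. C57BL/6 mice that were wild-type (*Nr2f6*+/+) or lacked the nuclear receptor NR2F6 in all cells (*Nr2f6*-/-) received 500000 of these cells s.c. and, from d3 on, 0.5 mg of the anti-PD-L1 antibody 10F.9G2 or of the control antibody IgG2b (LTF-2) i.p. 2 times a week. Tumors were taken at d14, and T cells enriched with CD4 and CD8 beads were combined before a final sort on CD3. Each genotype had 3 samples with IgG2b and 6 with αPD-L1, which gave 4 groups, and all mice carried tumors and received an antibody. Mice were 8 to 12 weeks old at tumor injection, and their sex is not given in the sources used here. A value thus averages both T cell lineages, from mice in which every cell type carried the genotype, and the labels do not say how many mice a sample holds.

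Between 12473391 and 18609482 reads per sample were counted on genes, and the floor of 3 reads was between 2.46 and 3.64 normalized counts. *Nr2f6* had 0 reads in 9 of 9 *Nr2f6*-/- samples and between 20.2 and 201 normalized counts in *Nr2f6*+/+ samples. All 11 T cell markers were tested and well measured, with *Cd3e* between 7381 and 15541 normalized counts over all samples. Library numbers in the labels form a first set of 12 samples with replicates 1 to 3 of all groups and a second set of 6 samples with replicates 4 to 6 of the αPD-L1 groups alone. In these bulk samples, fewer cells that use a gene and less RNA of it per cell cannot be told apart.

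Cells build cholesterol from acetyl-CoA through mevalonate and squalene, and build long-chain fatty acids from the same precursor through malonyl-CoA. The SREBP transcription factors switch on the genes of both routes when sterols in the endoplasmic reticulum membrane are low, escorted by SCAP to the Golgi for cleavage, and INSIG proteins hold them back when sterols are plentiful. Activated T cells are known to raise SREBP activity to supply membrane for growth and division.

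Promoter windows were examined because SREBPs act on their targets together with the factor NF-Y, which binds CCAAT. RefSeq promoters (GRCm38.p6, the assembly of mm10) matched 26 of the 33 genes, with 34 windows of 250 bases before a gene start. *Msmo1*, *Hmgcs1* and *Insig1* are shown. *Msmo1* is an enzyme whose level differed most clearly between groups. *Hmgcs1* is the enzyme of the mevalonate route that makes HMG-CoA, and *Insig1* is an inhibitor that is itself an SREBP target. Capitals mark the letters CCAAT or their reverse complement ATTGG, the sterol regulatory element letters TCACNCCAC, and the nuclear receptor motif AGGTCA or its reverse complement TGACCT. Sequences run 5′ to 3′ on the gene's strand and end at the base before the start, at chr8:64733579-64733828 (minus strand) for *Msmo1*, chr13:119690101-119690350 (plus strand) for *Hmgcs1* and chr5:28071162-28071411 (plus strand) for *Insig1*.
Msmo1: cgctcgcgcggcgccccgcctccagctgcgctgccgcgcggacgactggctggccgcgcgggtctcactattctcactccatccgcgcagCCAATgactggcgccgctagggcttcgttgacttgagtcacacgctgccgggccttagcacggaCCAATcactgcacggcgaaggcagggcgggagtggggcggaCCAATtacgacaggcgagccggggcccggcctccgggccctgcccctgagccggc
Hmgcs1: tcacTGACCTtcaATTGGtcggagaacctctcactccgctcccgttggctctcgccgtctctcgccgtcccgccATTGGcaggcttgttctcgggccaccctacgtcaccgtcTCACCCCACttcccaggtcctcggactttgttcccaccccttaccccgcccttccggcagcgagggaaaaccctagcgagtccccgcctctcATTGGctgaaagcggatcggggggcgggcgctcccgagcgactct
Insig1: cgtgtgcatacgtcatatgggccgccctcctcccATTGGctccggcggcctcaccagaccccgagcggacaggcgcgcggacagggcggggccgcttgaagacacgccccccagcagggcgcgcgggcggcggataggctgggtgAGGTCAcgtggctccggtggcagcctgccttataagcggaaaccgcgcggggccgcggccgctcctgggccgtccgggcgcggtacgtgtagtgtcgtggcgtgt
The *Msmo1* window held CCAAT 3 times, and its copy nearest the gene spans bases 55 to 51 before the start. *Hmgcs1* held the CCAAT letters 3 times on the reverse strand and a sterol regulatory element from 137 to 129 bases before the start, with a reversed AGGTCA from 246 to 241. *Insig1* held a reversed CCAAT from 216 to 212 and AGGTCA from 105 to 100 bases before the start. Over both strands, CCAAT was in 21 of the 34 member windows (61.8%) and in 33.8% of 32851 windows of all genes. The letters TCACNCCAC were in 1 of 34 (2.94%) against 1.05% of all windows. The E-box TCACGTGA was in 0 of 34 against 0.785%, and AGGTCA was in 7 of 34 (20.6%) against 14.02%. The last letters of AGGTCA, TCA, can also begin TCACNCCAC or TCACGTGA, and a match is a description of the sequence.

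Over the groups, the lowest levels of the list were in *Nr2f6*-/- αPD-L1. The mean log2 level of the 32 tested genes was 8.66 ± 0.09 (SD, n = 3) in *Nr2f6*+/+ IgG2b, 8.73 ± 0.40 (n = 6) in *Nr2f6*+/+ αPD-L1, 8.70 ± 0.24 (n = 3) in *Nr2f6*-/- IgG2b and 8.28 ± 0.28 (n = 6) in *Nr2f6*-/- αPD-L1. The samples of *Nr2f6*-/- αPD-L1 lay between 7.82 and 8.58, and those of *Nr2f6*+/+ αPD-L1 between 8.09 and 9.16, so these groups overlapped. The 7 tested fatty acid genes had group means of 8.23 ± 0.57, 8.54 ± 0.39, 8.35 ± 0.39 and 7.50 ± 0.72 in the same order, and replicate 6 of *Nr2f6*-/- αPD-L1 was the lowest of the 18 samples over all members.

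With αPD-L1 in place of IgG2b, most of the genes were lower in *Nr2f6*-/- mice. Of the 32 tested, 25 had a negative log2 difference (78.1%) with a median of -0.50, while 52.6% of all 11992 genes tested were negative, with a median of -0.04. A single gene fell past the threshold in limma (adjusted p under 0.05), the sterol demethylation enzyme *Msmo1*, where 0.325% of all genes were called, and edgeR and DESeq2 called the same gene alone. At an unadjusted p under 0.05, *Msmo1*, *Fads1* and *Cyp51* were lower and *Ebp* and *Scap* higher, 5 of 32 beside 9.70% of all genes. *Msmo1* and *Fads1* were the 2 members whose samples did not overlap between the antibodies, beside 5.12% of all genes. Without replicate 2 of *Nr2f6*-/- IgG2b the median was -0.33, and within the first library set it was -0.21, while edgeR gave a median of -0.28.

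In *Nr2f6*+/+ mice the same antibody comparison leaned the other way. Of 32 genes, 22 had a positive log2 difference and 10 a negative one, with a median of 0.18, while 57.3% of all genes were negative with a median of -0.10. No member was called by limma, edgeR or DESeq2, where limma called 0.242% of all genes. *Msmo1* alone had an unadjusted p under 0.05 (7.24% of all genes), with a log2 difference of 0.67, and 0 members had groups that did not overlap (4.54% of all genes). The median was 0.11 without replicate 2 of *Nr2f6*+/+ IgG2b or replicate 1 of *Nr2f6*+/+ αPD-L1, and 0.09 without replicate 5 of *Nr2f6*+/+ αPD-L1, and within the first library set it was 0.08, with 20 of 32 positive. Both antibody comparisons are between different mice, and no test of their difference is given.

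Macrophage markers were mostly lower with αPD-L1 in both genotypes, and 1 or 2 of them passed the test. The sum of 14 macrophage and monocyte markers was between 18840 and 24327 normalized counts in *Nr2f6*+/+ IgG2b, between 3092 and 9013 in *Nr2f6*+/+ αPD-L1, between 10513 and 17073 in *Nr2f6*-/- IgG2b and between 3518 and 5771 in *Nr2f6*-/- αPD-L1. Of these 14 markers, 14 were lower with αPD-L1 in *Nr2f6*+/+ and 13 in *Nr2f6*-/- mice, and none of the 14 was at 0 throughout a group. At an unadjusted p under 0.05, limma had 12 lower in *Nr2f6*+/+ and 10 in *Nr2f6*-/- mice, beside 7.24% and 9.70% of all genes. The samples of both antibodies did not overlap for 8 and 9 of them, all lower, beside 4.54% and 5.12% of all genes. limma called *Lyz2* in both genotypes and *C1qb* in *Nr2f6*-/- mice. *Lyz2*, a lysozyme of macrophages, had log2 differences of -2.83 (SE 0.39, adjusted p = 0.000387) in *Nr2f6*+/+ and -2.87 (SE 0.39, adjusted p = 0.000318) in *Nr2f6*-/- mice, and the complement gene *C1qb* fell by 3.27 (SE 0.63, adjusted p = 0.0123). These cells make and take up cholesterol too, and their part in the results on synthesis genes was not tested. The 12 proliferation markers summed to between 42759 and 62144 normalized counts over all samples, and 0 of 12 were called in either antibody comparison by limma or edgeR, while DESeq2 called 1, higher in *Nr2f6*-/- mice, and at an unadjusted p under 0.05 limma had 1 in *Nr2f6*+/+ and 2 in *Nr2f6*-/- mice.

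With αPD-L1, the synthesis genes were also mostly lower in *Nr2f6*-/- than in *Nr2f6*+/+ TILs. Over all samples a negative log2 difference was found for 24 of 32 genes (75%; all genes 50.3%), with a median of -0.34 (all genes -0.0049). limma called 0 members (0.175% of all genes), edgeR 0, and DESeq2 called *Msmo1*. *Msmo1*, *Fads1* and *Scd1*, 3 of 32, had an unadjusted p under 0.05, all lower, beside 9.73% of all genes. No member separated the 6 from the 6 samples, beside 0.592% of all genes. Without replicate 6 of *Nr2f6*-/- αPD-L1 the median was -0.22. In the first library set 17 of 32 genes were lower (53.1%; all genes 47.9%), with a median of -0.07, and in the second set the median was -0.66.

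With IgG2b, the members were divided in direction between genotypes, with a median above that of all genes. Of 32 genes, 18 were higher and 14 lower in *Nr2f6*-/- mice, with a median of 0.26, while 54.1% of all genes were lower, with a median of -0.06. limma called 0 members and 0 genes in all (0%), and edgeR and DESeq2 called 0 members. *Hmgcs1*, *Msmo1* and *Dhcr7* were higher and *Ebp* and *Scap* lower at an unadjusted p under 0.05, 5 of 32 beside 5.35% of all genes. The 3 against 3 samples did not overlap for *Msmo1* and *Dhcr7*, higher, and *Ebp*, lower, 3 of 32 beside 14.2% of all genes. The median was 0.15 without replicate 1 and 0.11 without replicate 3 of *Nr2f6*+/+ IgG2b, and 0.09 without replicate 2 and 0.11 without replicate 3 of *Nr2f6*-/- IgG2b.

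Melanocyte and tumor markers had lower values in *Nr2f6*-/- mice, with none past the threshold. All 8 tested had a negative log2 difference between genotypes with either antibody, with a median of -1.79 with IgG2b and -1.24 with αPD-L1. limma, edgeR and DESeq2 called 0 of them. With IgG2b and αPD-L1, 2 and 3 of the 8 had an unadjusted limma p under 0.05, beside 5.35% and 9.73% of all genes. The genotypes did not overlap for 5 and 0 of the 8, beside 14.2% and 0.592% of all genes. Their sum was between 3145 and 5786 normalized counts in *Nr2f6*+/+ IgG2b, 2161 and 9200 in *Nr2f6*+/+ αPD-L1, 1497 and 2791 in *Nr2f6*-/- IgG2b and 989 and 5698 in *Nr2f6*-/- αPD-L1. *Tyr*, the enzyme of melanin synthesis, was at 0 in all 6 samples of *Nr2f6*-/- αPD-L1 and under 25 normalized counts elsewhere. T cell markers summed to between 107217 and 126322, 119324 and 171352, 140344 and 147554, and 157859 and 183977 normalized counts in *Nr2f6*+/+ IgG2b, *Nr2f6*+/+ αPD-L1, *Nr2f6*-/- IgG2b and *Nr2f6*-/- αPD-L1. Of 11 T cell markers, 9 with IgG2b and 10 with αPD-L1 were higher in *Nr2f6*-/- mice. At an unadjusted limma p under 0.05 there were 0 and 4, beside 5.35% and 9.73% of all genes. The genotypes did not overlap for 2 and 0, beside 14.2% and 0.592%. limma and edgeR called 0 of them. DESeq2 called 1, *Cd8b1*, higher in *Nr2f6*-/- mice with αPD-L1, where it called 84 genes higher and 100 lower among all 11992.

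Of 6 B cell markers 3 were tested, and *Cd79a* was at 0 in all 18 samples. The 6 summed to between 2603 and 6952 normalized counts in *Nr2f6*+/+ IgG2b, 1661 and 2911 in *Nr2f6*+/+ αPD-L1, 2384 and 3926 in *Nr2f6*-/- IgG2b and 2275 and 2886 in *Nr2f6*-/- αPD-L1. With αPD-L1, 2 of the 3 tested were higher in *Nr2f6*-/- mice (median 0.61) and 3 of 3 lower in *Nr2f6*+/+ mice (median -1.25). limma and edgeR called 0. At an unadjusted limma p under 0.05 there were 1 of 3 in *Nr2f6*-/- and 2 of 3 in *Nr2f6*+/+ mice, beside 9.70% and 7.24% of all genes. DESeq2 called *Cd79b*, a part of the B cell receptor named here after its value was seen, higher with αPD-L1 in *Nr2f6*-/- mice (adjusted p = 0.0383), where limma gave a log2 difference of 4.42 (SE 1.53, adjusted p = 0.278). In that comparison DESeq2 called 143 genes higher and 87 lower among all 11992. The part of melanocyte, T cell and B cell transcripts in the results on synthesis genes was not tested.

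**Figure D1:**
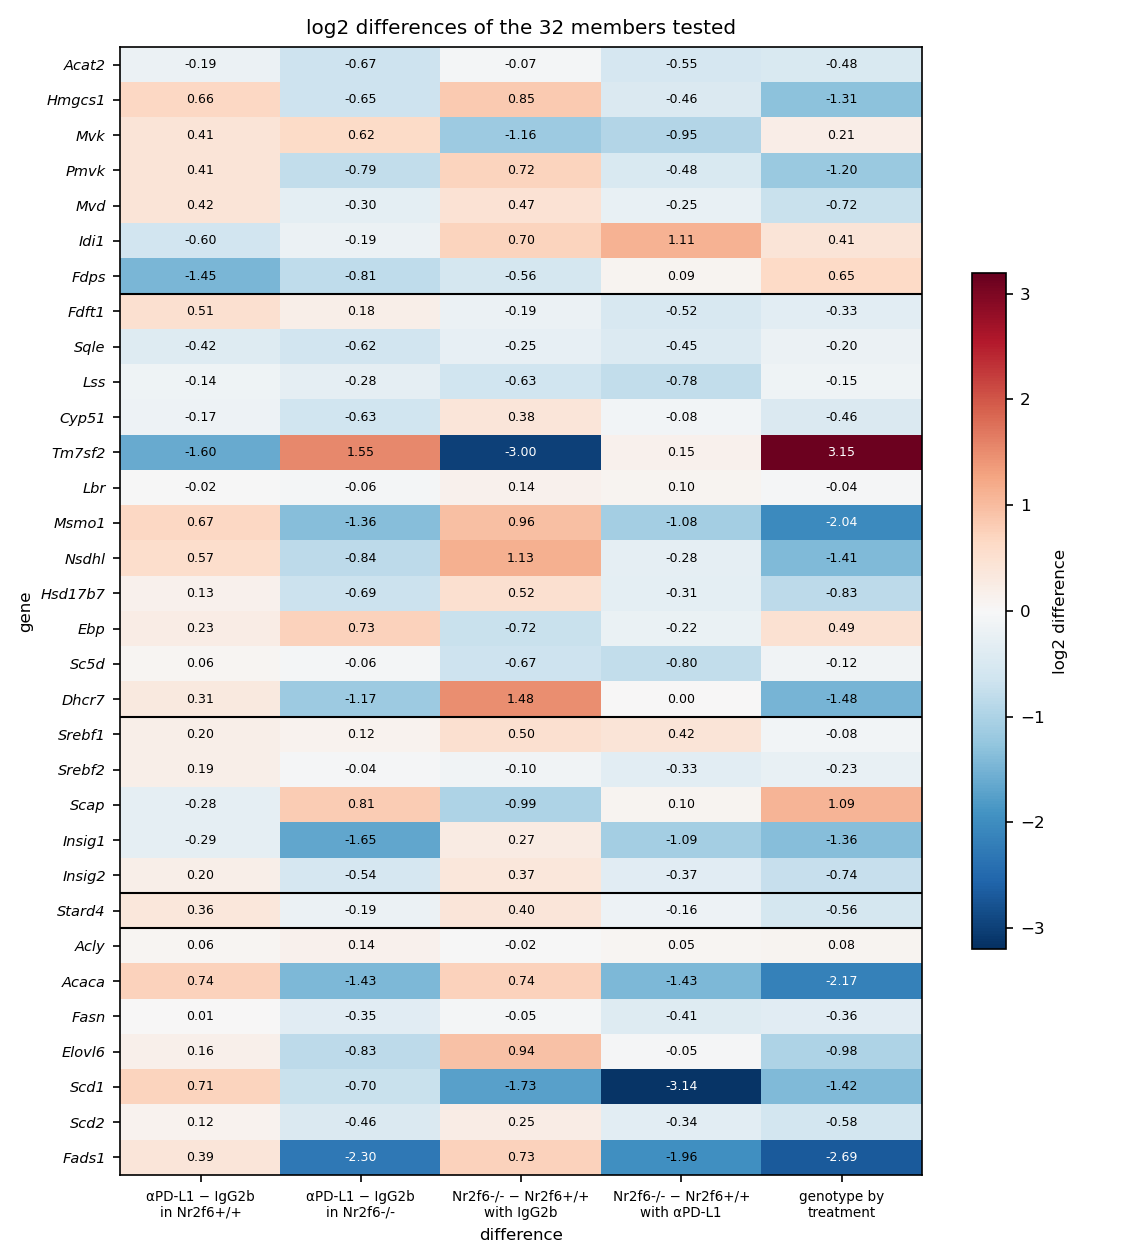
Rows are the 32 tested genes ordered by role and columns the 4 pairwise comparisons and the genotype by treatment difference, and each cell holds the log2 difference of group means (red above 0, blue below 0). The columns for αPD-L1 in *Nr2f6*-/- mice and for genotype with αPD-L1 are mostly blue, with 25 and 24 of 32 genes below 0.

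Among the 7 mevalonate genes, 6 were lower with αPD-L1 in *Nr2f6*-/- mice (median -0.65) and 5 were lower in *Nr2f6*-/- than in *Nr2f6*+/+ mice with αPD-L1 (median -0.46), and 0 were called by limma, edgeR or DESeq2 in any comparison. *Hmgcs1*, on chromosome 13 from 119690351 to 119708260, makes HMG-CoA, the substrate from which mevalonate is formed. Its normalized counts were 1429, 857 and 723 in *Nr2f6*+/+ IgG2b and 1673, 2571 and 1204 in *Nr2f6*-/- IgG2b. The αPD-L1 samples had 850, 1568 and 2286 (lowest, median, highest) in *Nr2f6*+/+ and 681, 1093 and 1641 in *Nr2f6*-/- mice. All groups overlapped, with the highest mean in *Nr2f6*-/- IgG2b. The log2 difference between antibodies was 0.66 (SE 0.33, limma adjusted p = 0.702) in *Nr2f6*+/+ and -0.65 (SE 0.33, adjusted p = 0.529) in *Nr2f6*-/- mice, the latter -0.37 without replicate 2 of *Nr2f6*-/- IgG2b.

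*Fdps*, which joins isoprenoid units into farnesyl diphosphate (chromosome 3, 89093588 to 89101967), had 79.9, 206 and 99.5 normalized counts in *Nr2f6*+/+ IgG2b. In *Nr2f6*+/+ αPD-L1 the lowest, median and highest were 5.10, 59.9 and 240, the log2 difference being -1.45 (SE 1.19, limma adjusted p = 0.869), -0.89 without replicate 2 of *Nr2f6*+/+ αPD-L1 and -0.65 in edgeR. *Nr2f6*-/- mice had 56.1, 104 and 87.4 with IgG2b and 11.03, 53.5 and 152.8 as the lowest, median and highest with αPD-L1. Its spread within αPD-L1 groups exceeded the difference between groups. The other mevalonate genes were *Acat2*, which condenses acetyl-CoA, the kinases *Mvk* and *Pmvk*, the decarboxylase *Mvd* and the isomerase *Idi1*. *Pmvk* was lower with αPD-L1 in *Nr2f6*-/- mice by 0.79 on the log2 scale (SE 0.39, adjusted p = 0.519) and *Acat2* by 0.67 (SE 0.48, adjusted p = 0.717). Without replicate 1 of *Nr2f6*-/- IgG2b *Pmvk* had -0.51, and without replicate 2 of *Nr2f6*-/- IgG2b *Acat2* had -0.36. *Mvk* had a log2 difference of 0.62 in that comparison (SE 0.98, adjusted p = 0.897), which turned to -0.73 without replicate 1 of *Nr2f6*-/- IgG2b. *Idi1* had a highest value of 73.5 normalized counts and lowest values of 0 and 1.74, under the floor, in the αPD-L1 groups of *Nr2f6*+/+ and *Nr2f6*-/- mice.

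Of the 12 genes of the squalene and sterol steps, 9 were lower with αPD-L1 in *Nr2f6*-/- mice (median -0.45) and 9 lower in *Nr2f6*-/- than in *Nr2f6*+/+ mice with αPD-L1 (median -0.29). *Msmo1*, a methyl sterol oxidase on chromosome 8 from 64718123 to 64733578, removes methyl groups on the way from lanosterol. It had 662, 1115 and 759 normalized counts in *Nr2f6*+/+ IgG2b. In *Nr2f6*+/+ αPD-L1 its lowest, median and highest were 951, 1324 and 1884. In *Nr2f6*-/- IgG2b it had 1781, 1873 and 1240. *Nr2f6*-/- αPD-L1 had 347, 692 and 991, so that every sample of this group lay below every sample of *Nr2f6*-/- IgG2b. *Msmo1* fell by 1.36 on the log2 scale (SE 0.31, 2.57-fold lower, limma adjusted p = 0.0471) with αPD-L1 in *Nr2f6*-/- mice, lower in 6 of 6 samples.

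The call for *Msmo1* was close to the threshold. edgeR gave an adjusted p of 0.0452 and DESeq2 of 0.00431, while leaving out 1 sample at a time gave limma adjusted p-values over the threshold for 14 of 18 samples, with the direction kept and the log2 difference between -1.55 and -1.19. Within the first library set the log2 difference was -1.35. Between genotypes with αPD-L1 it was -1.08 (SE 0.26, limma adjusted p = 0.0703, DESeq2 adjusted p = 0.00849), with -0.82 in the first set of libraries and -1.33 in the second. With IgG2b it was 0.96 in the other direction (SE 0.36, adjusted p = 0.861), with all 3 *Nr2f6*-/- samples above all 3 *Nr2f6*+/+ samples. *Msmo1* lies 6.64 Mb from *Nr2f6* on the same chromosome, and *Mvd* is the only other member on chromosome 8. The part of this position near the targeted gene in the result was not tested.

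*Dhcr7*, which reduces 7-dehydrocholesterol to cholesterol (chromosome 7, 143823167 to 143848410), had 238, 184 and 219 normalized counts in *Nr2f6*+/+ IgG2b and 837, 484 and 516 in *Nr2f6*-/- IgG2b, so these groups did not overlap. The log2 difference was 1.48 (SE 0.69, limma adjusted p = 0.920). With αPD-L1 the lowest, median and highest were 119, 251 and 591 in *Nr2f6*+/+ and 79.0, 290 and 778 in *Nr2f6*-/- mice, with overlapping ranges in both genotypes. *Ebp*, the sterol isomerase, went the opposite way with IgG2b, at 3458, 2468 and 2424 in *Nr2f6*+/+ and 1361, 1806 and 1896 in *Nr2f6*-/- mice. Its log2 difference was -0.72 (SE 0.29, adjusted p = 0.873), and with αPD-L1 in *Nr2f6*-/- mice it was 0.73 higher than with IgG2b (SE 0.25, adjusted p = 0.278). Within the first library set, which holds all IgG2b samples, this antibody difference was 0.31 (SE 0.24). Among αPD-L1 samples *Ebp* was 0.58 higher in the second set than in the first (SE 0.17), so part of the 0.73 cannot be told apart from the set.

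*Tm7sf2*, a sterol C14 reductase (chromosome 19, 6062821 to 6067850), varied widely between samples of the same group. It had 192, 197 and 29.9 normalized counts in *Nr2f6*+/+ IgG2b and 1.90, 24.5 and 30.2 in *Nr2f6*-/- IgG2b. In *Nr2f6*+/+ αPD-L1 the lowest, median and highest were 0, 72.2 and 435, and in *Nr2f6*-/- αPD-L1 they were 9.72, 47.7 and 149. The log2 difference between genotypes with IgG2b was -3.00 (SE 1.78, limma adjusted p = 0.967), and between antibodies it was -1.60 (SE 1.54, adjusted p = 0.879) in *Nr2f6*+/+ and 1.55 (SE 1.54, adjusted p = 0.811) in *Nr2f6*-/- mice. The difference with IgG2b was -1.91 without replicate 1 of *Nr2f6*-/- IgG2b, a sample under the floor of 3 reads. Between antibodies in *Nr2f6*+/+ mice it was -0.58 without replicate 6 of *Nr2f6*+/+ αPD-L1, the sample at 0, and -2.49 without replicate 3 of *Nr2f6*+/+ IgG2b, while edgeR gave -0.27. In *Nr2f6*-/- mice it was 0.45 without replicate 1 of *Nr2f6*-/- IgG2b. Between genotypes with αPD-L1 limma gave 0.15 and edgeR -1.01, so the direction depended on the tool. *Lbr*, the other C14 reductase, which also anchors chromatin at the nuclear lamina, had log2 differences between -0.06 and 0.14 in all 4 comparisons.

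The remaining enzymes of this branch were the squalene synthase *Fdft1*, the epoxidase *Sqle*, the cyclase *Lss*, the demethylase *Cyp51*, the dehydrogenase *Nsdhl*, the reductase *Hsd17b7* and the desaturase *Sc5d*. *Cyp51* was lower with αPD-L1 in *Nr2f6*-/- mice by 0.63 on the log2 scale (SE 0.29, limma adjusted p = 0.483), with 2702, 3489 and 2017 normalized counts with IgG2b and 1397, 1544 and 2726 as the lowest, median and highest with αPD-L1. *Nsdhl* differed by 1.13 (SE 0.69, adjusted p = 0.978) between genotypes with IgG2b and by -0.84 (SE 0.59, adjusted p = 0.709) between antibodies in *Nr2f6*-/- mice, values that were 0.69 without replicate 3 of *Nr2f6*+/+ IgG2b and -0.41 without replicate 4 of *Nr2f6*-/- αPD-L1. *Fdft1*, *Sqle*, *Lss*, *Hsd17b7* and *Sc5d* were all lower in *Nr2f6*-/- than in *Nr2f6*+/+ mice with αPD-L1 over all samples, with log2 differences between -0.80 and -0.31 and adjusted p-values of at least 0.547. In the first library set these genes had, in the same order, -0.69, -0.07, -0.07, 0.19 and 0.21. In the second set they had -0.36, -0.83, -1.48, -0.81 and -1.81, so *Hsd17b7* and *Sc5d* changed direction between sets.

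**Figure D2:**
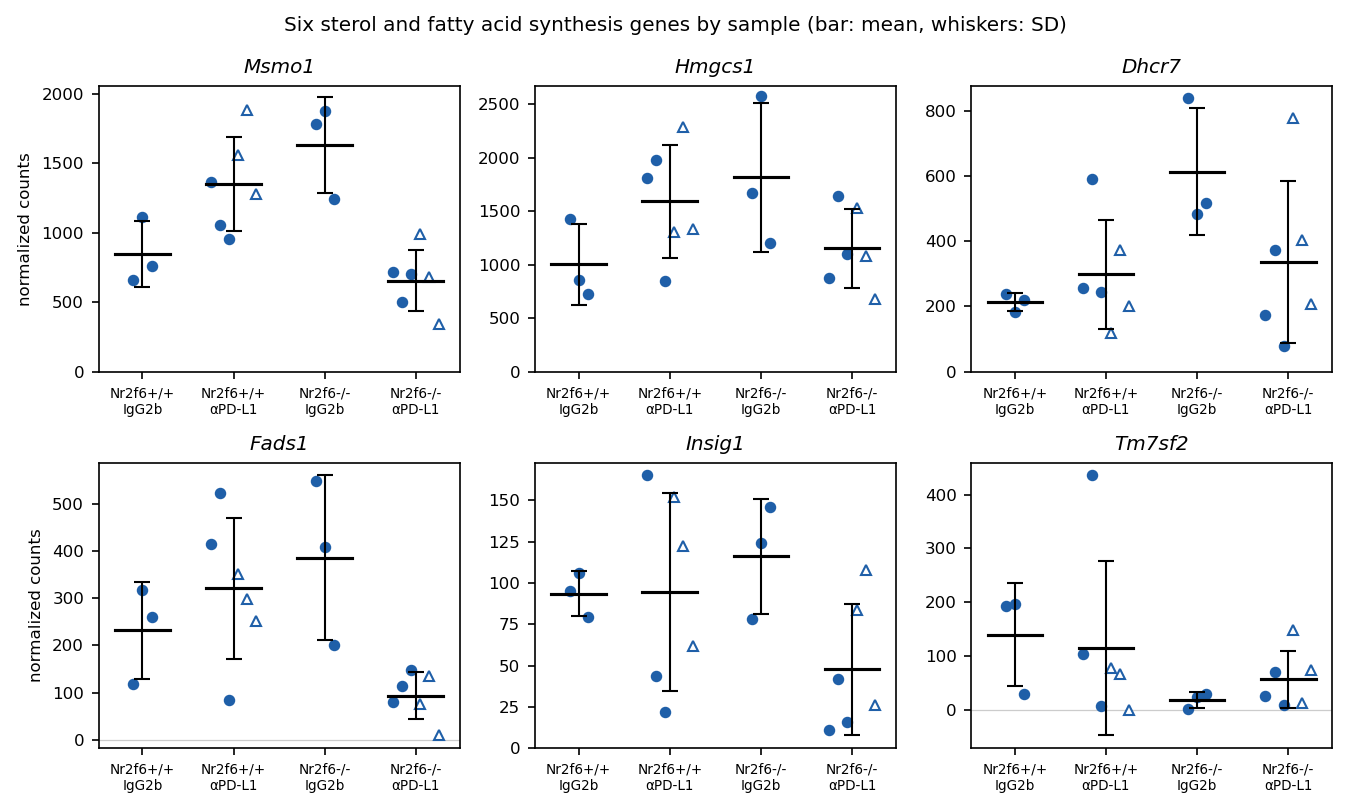
Each panel shows normalized counts (y axis, from 0) of a gene in the 4 groups (x axis); filled circles are samples of the first library set, open triangles those of the second, and bars give the group mean with whiskers of 1 SD. *Msmo1* and *Fads1* samples of *Nr2f6*-/- αPD-L1 lie below all *Nr2f6*-/- IgG2b samples, while the groups of *Hmgcs1*, *Insig1* and *Tm7sf2* overlap.

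The transcription factors of the SREBP system were not called in any pairwise comparison by limma, edgeR or DESeq2. *Srebf1* (chromosome 11, 60199084 to 60224186), which mainly drives fatty acid genes, had 641, 437 and 539 normalized counts in *Nr2f6*+/+ IgG2b and 1173, 821 and 449 in *Nr2f6*-/- IgG2b. With αPD-L1 the lowest, median and highest were 409, 613 and 931 in *Nr2f6*+/+ and 611, 746 and 1251 in *Nr2f6*-/- mice. Its log2 differences were 0.20 and 0.12 between antibodies in *Nr2f6*+/+ and *Nr2f6*-/- mice and 0.50 and 0.42 between genotypes with IgG2b and αPD-L1, with limma adjusted p-values of at least 0.680. *Srebf1* is the control gene with *Nr2f6*-/- means above *Nr2f6*+/+ means under both antibodies, and all groups overlapped. Between genotypes with αPD-L1 it had 0.79 (SE 0.40) in the first library set and 0.06 (SE 0.34) in the second.

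*Srebf2* (chromosome 15, 82147269 to 82205379), the main driver of cholesterol genes, had 524, 654 and 779 normalized counts in *Nr2f6*+/+ IgG2b and 786, 555 and 495 in *Nr2f6*-/- IgG2b. Under αPD-L1 its lowest, median and highest were 260, 739 and 1699 in *Nr2f6*+/+ and 342, 559 and 926 in *Nr2f6*-/- mice. The log2 differences lay between -0.33 and 0.19 in the 4 comparisons, with adjusted p-values of at least 0.80. Between genotypes with αPD-L1 *Srebf2* had 0.22 (SE 0.50) in the first library set and -0.89 (SE 0.31) in the second, so its direction was not shared. The message of these factors does not show their cleavage, which was not measured.

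*Insig1* (chromosome 5, 28071412 to 28078662) retains SREBPs and is itself a target of theirs. It had 94.9, 106 and 79.6 normalized counts in *Nr2f6*+/+ IgG2b and 78.0, 124 and 146 in *Nr2f6*-/- IgG2b. With αPD-L1 the lowest, median and highest were 21.96, 92.1 and 165 in *Nr2f6*+/+ and 11.2, 33.9 and 108 in *Nr2f6*-/- mice. In *Nr2f6*-/- mice 4 of the 6 αPD-L1 samples lay below all 3 IgG2b samples, and the log2 difference was -1.65 (SE 1.03, limma adjusted p = 0.643). *Insig2*, its sterol-sensing relative, differed by -0.54 (SE 0.51, adjusted p = 0.801) in the same comparison. *Scap*, the SREBP escort, had 1272, 808 and 979 in *Nr2f6*+/+ IgG2b and 274, 855 and 541 in *Nr2f6*-/- IgG2b, a log2 difference of -0.99 (SE 0.38, adjusted p = 0.861), and was 0.81 higher with αPD-L1 than with IgG2b in *Nr2f6*-/- mice (SE 0.33, adjusted p = 0.394). Without replicate 1 of *Nr2f6*-/- IgG2b, the lowest sample of *Scap*, these values were -0.56 and 0.37. *Stard4*, which carries cholesterol between membranes, had log2 differences between -0.19 and 0.40 in the 4 comparisons.

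Fatty acid genes leaned in opposite directions in the genotypes. All 7 tested had a positive log2 difference with αPD-L1 in *Nr2f6*+/+ mice (median 0.16), and 6 of 7 a negative one in *Nr2f6*-/- mice (median -0.70). Of all genes, 57.3% and 52.6% were negative. limma, edgeR and DESeq2 called 0 of the 7, where limma called 0.242% and 0.325% of all genes. An unadjusted p under 0.05 was found for 0 and 1 of the 7, beside 7.24% and 9.70% of all genes. Leaving out 1 sample turned the sign of *Acly*, *Fasn*, *Elovl6*, *Scd1*, *Scd2* and *Fads1* in *Nr2f6*+/+ mice and of *Acly* in *Nr2f6*-/- mice. *Fads1* (chromosome 19, 10182877 to 10196874), the delta-5 desaturase of polyunsaturated fatty acids, had 119, 318 and 260 normalized counts in *Nr2f6*+/+ IgG2b and 549, 409 and 201 in *Nr2f6*-/- IgG2b. With αPD-L1 the lowest, median and highest were 83.6, 326 and 525 in *Nr2f6*+/+ and 9.02, 96.9 and 148 in *Nr2f6*-/- mice. All 6 *Nr2f6*-/- αPD-L1 samples lay below the 3 *Nr2f6*-/- IgG2b samples, and 5 of the 6 *Nr2f6*+/+ αPD-L1 samples lay above them. The log2 difference was -2.30 (SE 0.78, limma adjusted p = 0.270, DESeq2 adjusted p = 0.0775) between antibodies in *Nr2f6*-/- mice and -1.96 (SE 0.64, limma adjusted p = 0.270, DESeq2 adjusted p = 0.0602) between genotypes with αPD-L1.

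*Acaca* (chromosome 11, 84129635 to 84401651), the acetyl-CoA carboxylase that makes malonyl-CoA, had 252, 46.9 and 87.9 normalized counts in *Nr2f6*+/+ IgG2b and 63.7, 381 and 203 in *Nr2f6*-/- IgG2b. Under αPD-L1 the lowest, median and highest were 21.4, 164 and 760 in *Nr2f6*+/+ and 1.0025, 109 and 475 in *Nr2f6*-/- mice. Its log2 difference between genotypes with αPD-L1 was -1.43 (SE 1.03, limma adjusted p = 0.689), and -0.43 without replicate 6 of *Nr2f6*-/- αPD-L1, its lowest sample and under the floor. *Fasn*, the fatty acid synthase, had differences between -0.41 and 0.01, and *Acly*, which supplies cytosolic acetyl-CoA, between -0.02 and 0.14. *Elovl6*, an elongase, ranged from 4.11 to 752 normalized counts within *Nr2f6*+/+ αPD-L1. Of the stearoyl-CoA desaturases, *Scd2* had differences between -0.46 and 0.25, and *Scd1* was 3.14 lower on the log2 scale (SE 1.30, adjusted p = 0.412) in *Nr2f6*-/- than in *Nr2f6*+/+ mice with αPD-L1. *Scd1* was at 0 in 3 of 6 *Nr2f6*-/- αPD-L1 samples and at 60.8 in another, so this value rests on low counts, and between antibodies in *Nr2f6*-/- mice limma gave -0.70 and edgeR 0.93. *Fads2*, the delta-6 desaturase, was at 0 in 9 of 9 *Nr2f6*-/- samples, which allows up to 3 reads in each. It was also at 0 in 1 of 3 *Nr2f6*+/+ IgG2b and 4 of 6 *Nr2f6*+/+ αPD-L1 samples, with a highest value of 15.7. Of all 18 samples, 16 were under the floor, so *Fads2* does not separate the genotypes.

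The genotype by treatment difference, the antibody difference in *Nr2f6*-/- minus that in *Nr2f6*+/+ mice, was part of how the genes were chosen and is given as a description. It was below 0 for 25 of 32 genes (78.1%; all genes 46.97%), with a median of -0.47 (all genes 0.06). The median was -0.27 without replicate 2 of *Nr2f6*-/- IgG2b. The range ran from -2.69 for *Fads1* (SE 1.10) to 3.15 for *Tm7sf2* (SE 2.18). *Acaca* had -2.17 (SE 1.78), *Msmo1* -2.04 (SE 0.44), *Dhcr7* -1.48 (SE 0.84), *Insig1* -1.36 (SE 1.45) and *Hmgcs1* -1.31 (SE 0.46). Across all genes limma called 0% in this term, and 4.97% had an unadjusted p under 0.05.

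The second library set gave a larger genotype difference than the first among αPD-L1 samples. In the first set, 3 against 3 samples, 17 of 32 genes were lower in *Nr2f6*-/- mice (53.1%; all genes 47.9%), with a median of -0.07. In the second set 24 of 32 were lower (75%; all genes 50.8%), with a median of -0.66. Both sets had a negative difference for 12 genes (37.5%, beside 25.8% of all genes), and *Msmo1*, *Fads1*, *Insig1*, *Acaca*, *Scd1* and *Hmgcs1* were among them. This count depends on how many genes were lower in each set, a share that was larger for the members than for all genes. It does not by itself show agreement between the sets. *Fads1* had -1.25 and -2.67, *Insig1* -1.43 and -0.75, and *Hmgcs1* -0.31 and -0.60 in the first and second set. *Tm7sf2* had -1.34 and 1.64, *Dhcr7* -0.95 and 0.95, and *Fdps* 1.52 and -1.34, so their direction was not shared. Across the 32 genes the differences of both sets had Pearson's r of 0.29 and Spearman's rho of 0.07, against 0.07 and 0.07 over all genes, as a description across genes that share samples. Between the sets themselves, with both genotypes pooled, 0 members and 0% of all genes were called by limma, and 1 member, *Ebp*, had an unadjusted p under 0.05 (9.31% of all genes).

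**Figure D3:**
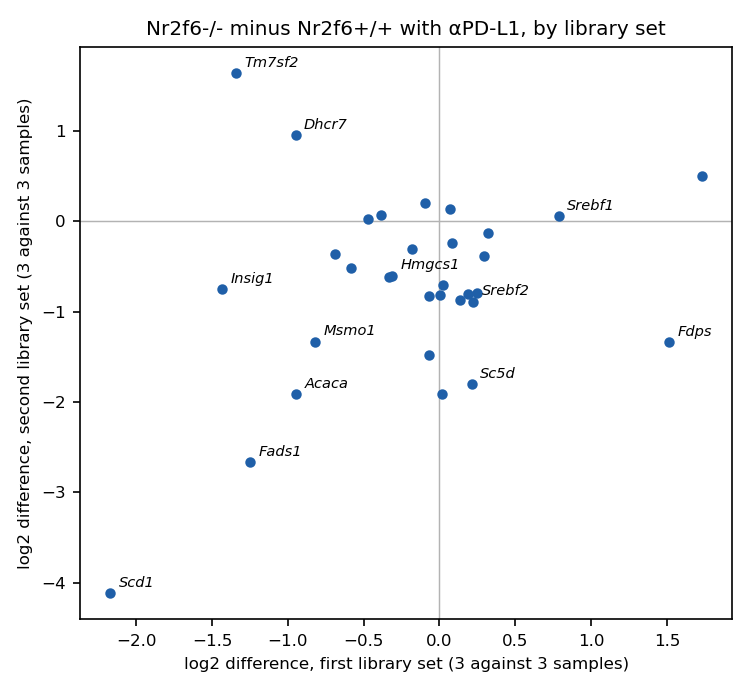
Each point is a gene, with its log2 difference of *Nr2f6*-/- minus *Nr2f6*+/+ TILs with αPD-L1 in the first library set (x axis) and in the second (y axis), 3 against 3 samples each. The 12 genes in the lower left area are lower in both sets, *Msmo1*, *Fads1* and *Scd1* among them, while *Tm7sf2* and *Dhcr7* lie on opposite sides of 0.

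After group means were removed, sterol genes varied together only weakly from sample to sample. Over the 18 samples the median Pearson's r of the 171 pairs of 19 sterol enzymes was 0.12 and the median Spearman's rho 0.10, against 0.0011 and 0.001 over all pairs of genes tested. The pairs share libraries and depth, and these values are a description. The closest pairs of members were *Sqle* with *Cyp51* (r = 0.81), *Hmgcs1* with *Sqle* (r = 0.80) and *Acat2* with *Msmo1* (r = 0.76). *Hmgcs1* with *Hsd17b7* (r = 0.70) and *Sqle* with the regulator *Srebf2* (r = 0.70) came next. *Msmo1* had the highest median r with the other sterol enzymes (0.33) and *Nsdhl* the lowest (-0.26). The 7 fatty acid genes had a median r of 0.04 over 21 pairs.

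**Figure D4:**
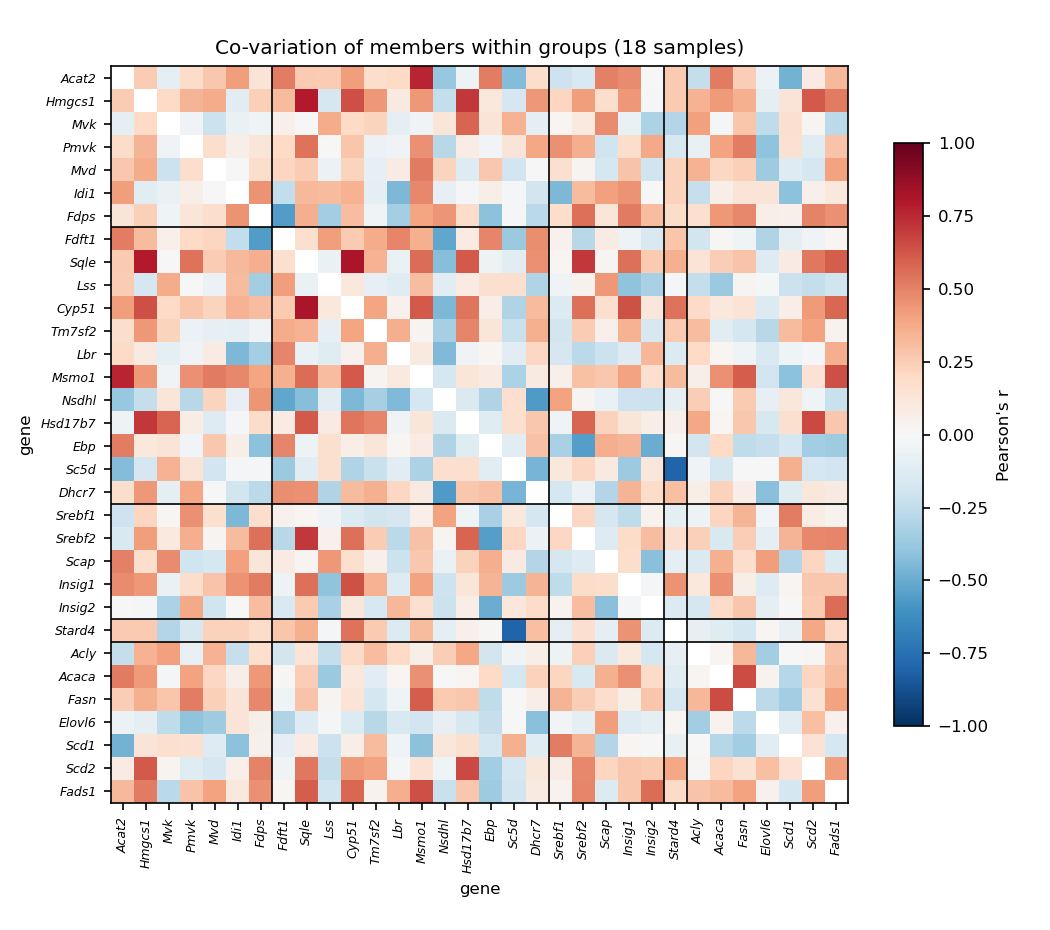
Rows and columns are the 32 tested genes in order of role, and color gives Pearson's r of their log2 levels over 18 samples after the group means were removed. Red cells among *Hmgcs1*, *Sqle*, *Cyp51* and *Msmo1* stand out, while most cells are near 0 (median r 0.09 over 496 pairs).

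Other genes of the pathway were read from a list of 28 further synthesis and uptake genes, of which 23 were tested and 0 were called in any pairwise comparison by limma, edgeR or DESeq2. With αPD-L1 in *Nr2f6*-/- mice 16 of 23 were lower (median -0.31), and between genotypes with αPD-L1 14 of 23 (median -0.34), where 3 were lower at an unadjusted p under 0.05. Over all genes 52.6% and 50.3% were lower in these comparisons, and 9.73% had an unadjusted p under 0.05 in the latter.

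Genes that remove or burn lipids had no call in limma, edgeR or DESeq2 in the 4 comparisons. Of 15 LXR target, storage and efflux genes 13 were tested, and with αPD-L1 10 of 13 were lower in *Nr2f6*+/+ mice (median -0.75) and 5 of 13 in *Nr2f6*-/- mice (median 0.03), with an unadjusted p under 0.05 for 4 and 1, beside 57.3% and 52.6% of all genes lower and 7.24% and 9.70% at that p. *Apoe*, an apolipoprotein in both this list and the macrophage markers, had -4.01 and -4.92, and without it, a choice made after seeing the data, 9 of 12 were lower in *Nr2f6*+/+ mice (median -0.62) and 4 of 12 in *Nr2f6*-/- mice (median 0.08). The 14 macrophage markers had medians of -3.30 and -3.40 in these comparisons, and their part in this result was not tested. Between genotypes with αPD-L1, 8 of 13 were higher (median 0.14), 3 of them at an unadjusted p under 0.05. Of 18 fatty acid uptake and oxidation genes 17 were tested, and 11 were higher in *Nr2f6*-/- than in *Nr2f6*+/+ mice with αPD-L1 (median 0.12), 1 at an unadjusted p under 0.05 (9.73% of all genes, of which 50.3% were lower), whereas 24 of the 32 synthesis genes were lower in that comparison. The lists share their samples, and a difference between them was not tested.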

How the data were processed

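CD3+ TILs in 18 samples of 4 groups were sequenced as 3′ end (QuantSeq) libraries on an Ion Torrent Proton. The authors trimmed reads (Cutadapt, Trimmomatic), removed those under 22 nt, mapped to mm10 (STAR, then Bowtie2), counted with HTSeq-count and deposited a signal value per gene, the read count divided by a size factor of the sample (0.823 to 1.22). Versions, annotation and strand setting are not given in the sources used here, which makes genes uncertain that overlap another gene, on either strand, or have a close copy. Every value was a whole multiple of a step within 0.001 reads (100%), which gives 12473391 to 18609482 reads per sample; reads carry no molecular identifiers here, so the 3-read floor covers counting error alone. All 18 columns differed from each other.

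Because the values are not counts, limma 3.58.1 (R 4.3.3, trend option) was fitted to log2(normalized count + 1). The model had 4 group means over 18 samples and 11992 genes with a mean of at least 10. On this scale differences of low genes can be too small, through the added 1, or too large, through single samples near 0. Tests were two-sided with Benjamini-Hochberg adjustment over all genes and a threshold of 0.05, and an adjusted p is limma's where no tool is given. edgeR 4.0.16 and DESeq2 1.42.0, the tool of the study, were run on recovered reads. Other alternatives were pseudocounts of 0.5 and 10, no filter or a mean of 50, quantile and TMM scaling, only the groups compared, library set as a covariate or each set alone, sample weights, the replicate number as a block, and each sample left out. A run without replicate 3 of *Nr2f6*+/+ αPD-L1 and replicate 4 of *Nr2f6*-/- αPD-L1, which a published plot appears to leave out, was added after seeing the data. The fit was tested on simulated data.

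The 33 members and all lists were chosen with earlier results of these data known, and some genes first placed in these lists were left out and are not reported here. Sample values are given for *Srebf1*, *Srebf2*, *Insig1*, *Hmgcs1*, members called in a pairwise comparison and, in each comparison, the 2 largest differences among members with a mean of at least 50; values for *Ebp*, *Scap* and *Cyp51* were added after they were seen. Replicate numbers are shared between groups whose mice differ in genotype or antibody: over 21 same-number pairs the correlation of deviations was between -0.029 and 0.037, so numbers do not pair samples. The labels do not say whether a sample is 1 mouse or several pooled, so p-values measure the spread between samples. Promoter sequences and positions are from RefSeq (GRCm38.p6).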

Additional observations from a re-analysis of the deposited data

Results flagged for a closer look

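In 20 groups of 6 samples, 1 for each of 10 genes in both αPD-L1 groups, 1 single sample stood apart from the rest by Dixon's criterion (gap to the next sample over the range, above the 95% critical value for 6 samples), a criterion that chance meets in about 1 of 20 groups. *Tm7sf2* was at 435 normalized counts in replicate 2 of *Nr2f6*+/+ αPD-L1, and the next sample was at 103 (ratio 0.763). The cause of this value was not tested.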

How the results depend on the processing

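For αPD-L1 against IgG2b in *Nr2f6*-/- mice, the 1 called member (*Msmo1*) became 0 with no filter, quantile normalization, TMM scaling, only the groups compared, library set as a covariate or the first library set alone, and between 0 and 1 when each sample was left out. The adjusted p of *Msmo1* ranged from 0.00431 to 0.241 over these settings and its log2 difference stayed negative. With the replicate number as a block, 0 members were called and *Msmo1* had an adjusted p of 0.0527; the block changed no other call among members, and replicate numbers do not pair the samples. The median of members was -0.21 with the first set alone. Between genotypes with αPD-L1, the median was -0.069 in the first and -0.66 in the second set alone, and the 0 called members became 1 with DESeq2 and 1 without the 2 libraries that a published plot leaves out, and between 0 and 1 when each sample was left out (1 without replicate 4 of *Nr2f6*-/- αPD-L1). The genotype by treatment difference was used to choose the members, and their calls in it are not given. No median reversed, nor did the differences of the 2 members with the largest values among those with a mean of at least 50 in each comparison, or that of *Msmo1*. Over all 32 members, leaving out 1 sample turned the sign of 17 and 9 differences between antibodies in *Nr2f6*+/+ and *Nr2f6*-/- mice and of 10 and 8 between genotypes with IgG2b and αPD-L1, edgeR turned 3, 4, 1 and 2, and the first library set 4, 3, 0 and 13. The 0 with IgG2b was fixed in advance, because all IgG2b samples are in the first set. *Tm7sf2* between genotypes with αPD-L1 and *Scd1* between antibodies in *Nr2f6*-/- mice were among those that edgeR turned. The causes were not tested. Counts over all genes depended on the tool: with DESeq2 94, 230, 88 and 184 genes were called for αPD-L1 in *Nr2f6*+/+ and *Nr2f6*-/- mice and for genotype with IgG2b and αPD-L1, against 29, 39, 0 and 21 with limma, whose other settings, beside leaving out 1 sample, gave 12 to 87, 8 to 57, 0 to 14 and 0 to 34. The 3 samples of each IgG2b group limit the precision of every comparison that uses them, and *Idi1*, *Tm7sf2*, *Acaca*, *Scd1* and *Fads2*, 5 of 33 members, had samples under the floor.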
